A study of Rattus norvegicus with 6 samples.

Results

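Lactate-treated rat nucleus pulposus cells held several-fold more transcript of 5 dual-specificity MAP kinase phosphatases and several-fold less of the ERK pathway inhibitors Spry1 and Spry2 than untreated cells. The genes described here are 10 negative feedback regulators of MAP kinase signalling, taken by gene symbol from the 17273 genes of the deposited table: Dusp1, Dusp4, Dusp5, Dusp6, Dusp8, Dusp10, Dusp16, Spry1, Spry2 and Spred1. All 10 were in the table and all 10 passed the filter on low counts, which left 13747 genes. RNA sequencing compared 3 libraries of cells given 10 mM lactate for 8 h with 3 libraries of untreated control cells. Both groups were wild-type cells of the nucleus pulposus, the soft centre of the disc between vertebrae, and came from Sprague Dawley males, and were cultured in DMEM with serum. The labels give neither the age of the animals nor the origin of each replicate (its own culture or animal, or a shared one), so the p-values cover the spread among these libraries, possibly a technical one. The form of the lactate (lactic acid or a salt) is not given in them.

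MAP kinases are switched on by phosphorylation of a threonine and a tyrosine in their activation loop, and the dual-specificity phosphatases of the MKP family remove both phosphates. Some of these phosphatases act mainly on ERK, the kinase of the Ras pathway that answers growth factors, and others mainly on p38 and JNK, the kinases of the stress pathways. Sprouty and Spred proteins act further upstream and restrain Ras and Raf after growth factor receptors are engaged. Many of these genes are themselves induced when the pathway fires, which makes them feedback regulators.

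Libraries held 30291357 to 38989574 counts. Levels below are CPM, counts relative to library size, scaled by TMM factors, which bring the bulk of genes in all libraries to a common level and were 0.702 to 0.806 for lactate and 1.33 to 1.36 for control libraries. Different genes are compared in FPKM, the deposited counts per transcript length and library total. A positive log2 fold change means a higher level in lactate libraries, and its error is the standard error (SE). A gene was called at an edgeR adjusted p under 0.05. The groups differed over the whole transcriptome, with 66% of 13747 genes called (31.4% higher and 34.6% lower). Without TMM factors the median log2 fold change of all genes fell to −0.96, against −0.10 with them, so a direction below is relative to the bulk of genes. The cells had abundant aggrecan (Acan), the main proteoglycan of the disc, at a mean of 2290 CPM in lactate and 2393 CPM in control libraries (−0.06 ± 0.10, SE; edgeR adjusted p = 0.59). The notochord markers Tbxt and Krt19 were at or near 0, with 0 counts in lactate libraries and 12 and 9 counts over the control libraries, and Col2a1 had 55 counts in lactate and 39 in control libraries. Of 6 macrophage and 6 endothelial markers 5 and 3 had a row, and the others were not analysed here. Of the macrophage markers 2 passed the filter, and the summed level of the 5 was 1.80 to 2.41 FPKM in lactate and 7.61 to 8.14 FPKM in control libraries. Cd68 was higher (1.48 ± 0.40), though not called with library totals (0.64), and Cd14 lower (−1.72 ± 0.19, SE), while the defining markers Itgam and Adgre1 had 3 and 0 counts over the lactate and 2 and 4 counts over the control libraries. Of the endothelial markers 1 passed, with a summed level over those 3 of at most 0.0598 FPKM in lactate and 0.0936 FPKM in control libraries. Of 8 nucleus pulposus markers tested 2 were higher and 2 lower, led by Cd24 (2.32 ± 0.13), Sox9 (1.45 ± 0.28) and Pax1 (−0.88 ± 0.18, SE). The summed level of the 10 nucleus pulposus markers with a row, without TMM factors, was lower after lactate. It was 327 to 370 FPKM in lactate and 597 to 675 FPKM in control libraries. With library totals 1 was higher and 5 lower, where 12.5% of all genes were called higher and 61.8% lower. Sox9 was then not called (0.56). Of 7 fibroblast and annulus fibrosus markers 4 were higher and 2 lower, led by Mkx (−2.36 ± 0.17), Pdgfra (−1.42 ± 0.11) and Thy1 (1.24 ± 0.10, SE). The higher ones were Col1a1, Col3a1, Thy1 and Dcn, listed after their values were seen. With library totals 3 of the 7 were higher and 2 lower. The summed level of the 7 was 15096 to 18961 FPKM in lactate and 8031 to 9245 FPKM in control libraries. The part of these markers in the results below was not tested. In such bulk samples fewer cells expressing a gene and less of its RNA per cell cannot be told apart.

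Of the 10 genes, 5 were called higher in lactate libraries (Dusp1, Dusp4, Dusp5, Dusp8 and Dusp10). A further 2 were called lower (Spry1 and Spry2) and 3 were not called (Dusp6, Dusp16 and Spred1). Over all genes tested 66% were called, 31.4% higher and 34.6% lower, so 7 called of 10 is close to the share over all genes. The same 7 genes had groups that did not overlap, where 72.2% of all genes tested did not overlap (33.7% with lactate higher and 38.4% with lactate lower). The share called lower among the 10 was below the 34.6% of all genes. All 5 risen genes changed at least 4-fold, as did 5.04% of all genes tested in that direction, and both Sprouty genes fell at least 4-fold, as did 8.45% of all genes. The median log2 fold change of the 10 was 1.45, against −0.10 over all genes tested. In the authors' deposited table of 6359 selected genes the same 7 were listed, and their log2 fold changes there ran between −2.62 for Spry1 and 3.58 for Dusp10.

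**Figure D1:**
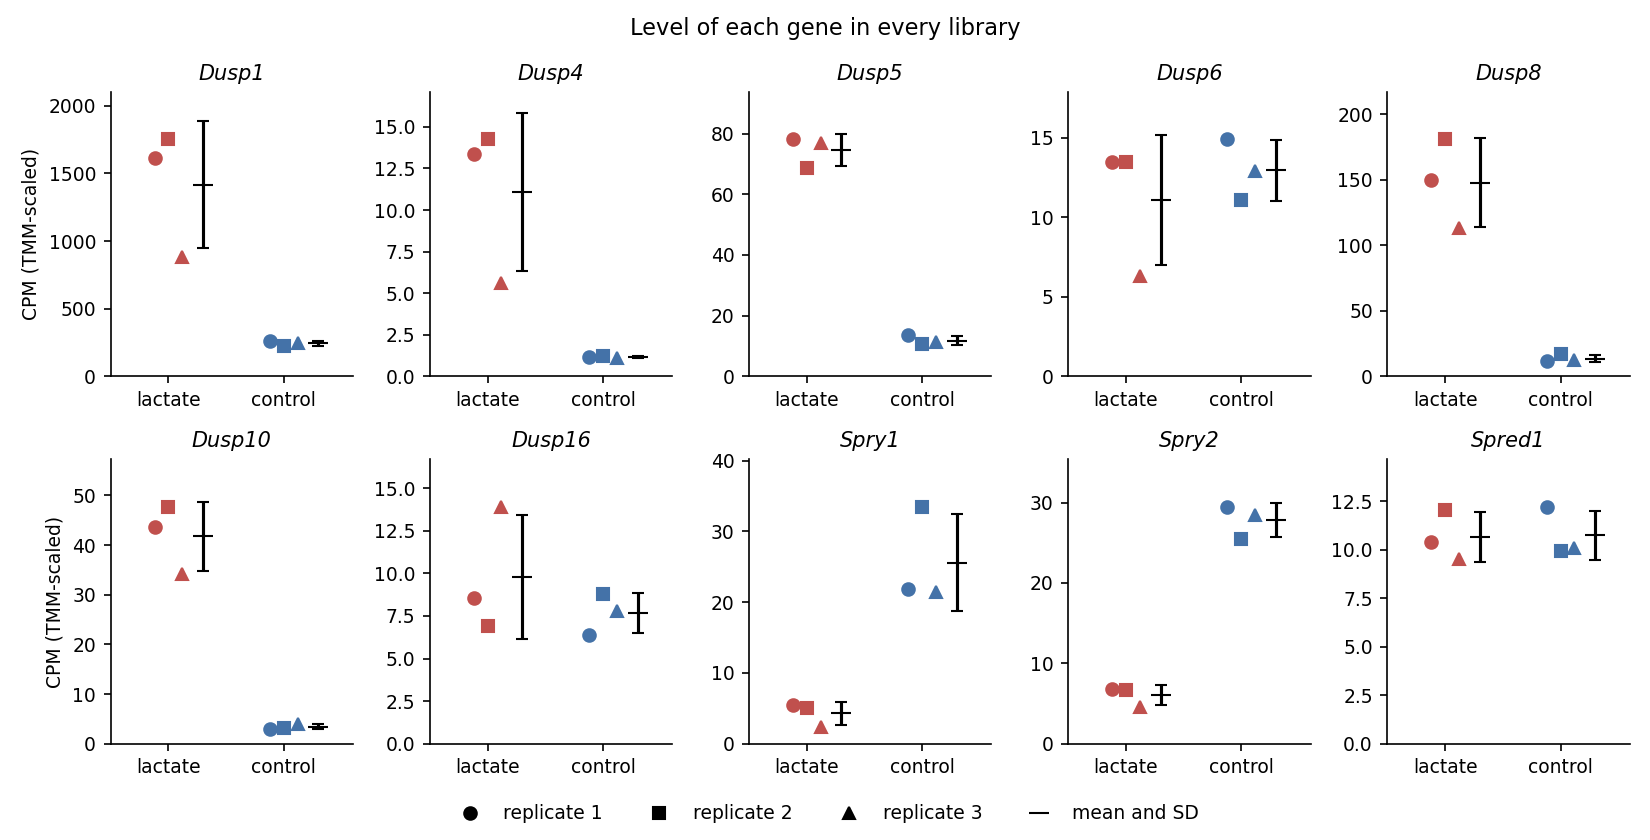
TMM-scaled CPM of each of the 10 genes in lactate (red) and control (blue) libraries, with 1 symbol per replicate number and the mean ± SD beside each group (n = 3). Dusp1, Dusp4, Dusp5, Dusp8 and Dusp10 lie wholly higher and Spry1 and Spry2 wholly lower in lactate libraries, while Dusp6, Dusp16 and Spred1 overlap.

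Dusp1, or MKP-1, is a nuclear phosphatase that acts on p38, JNK and ERK and is induced early by stress and growth factors. Its level was 1617, 1753 and 883 CPM in lactate replicates 1, 2 and 3, against 260, 222 and 246 CPM in control replicates 1, 2 and 3. Every lactate library was above every control library, and lactate replicate 3 had the lowest of the lactate values. The log2 fold change was 2.55 ± 0.24 (SE; edgeR adjusted p = 2.7e-05), or 5.84-fold. Per length, Dusp1 was the most abundant of the 10 in both groups, at 517 ± 140 FPKM in lactate and 164 ± 15.1 FPKM in control libraries (SD, n = 3). That placed it at the 99th percentile of all genes in the table in lactate libraries and the 97.7th in control libraries.

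Dusp5 is a nuclear phosphatase selective for ERK. It had 78.1, 68.6 and 77.1 CPM in lactate libraries, against 13.5, 10.6 and 11.1 CPM in control libraries. In CPM it varied less among lactate libraries, relative to its mean, than the other risen genes. In FPKM, without TMM factors, this did not hold (22.2 ± 2.84, against 10.999 ± 1.08 for Dusp10, SD, n = 3). The adjusted p of Dusp5 was the smallest of the 10 (log2 fold change 2.67 ± 0.13, SE; edgeR adjusted p = 2e-06). Dusp4, or MKP-2, the other nuclear phosphatase among the 10, was scarce in untreated cells. It had 13.4, 14.3 and 5.59 CPM in lactate libraries, against 1.16, 1.24 and 1.103 CPM in control libraries, from 295, 303 and 160 counts in lactate and 53, 64 and 52 counts in control libraries. The groups did not overlap, and the 3 control libraries were close together while lactate replicate 3 was well below the other two. Its log2 fold change was 3.24 ± 0.36 (SE; edgeR adjusted p = 7.4e-05), or 9.43-fold.

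The promoters of Dusp5 and Dusp1 are shown because both genes rose and their windows hold sites of inducible transcription factors. Promoters were taken from RefSeq (rat build GRCr8) as 300 bases, 250 before to 50 after a gene's start. Of the 10 genes 9 matched, Dusp4 not, and Spry2 has 2 starts, which gave 10 windows. In the Dusp5 window (chr1:262543524-262543823, plus strand) the capitals mark 2 adjacent CArG boxes, the site of serum response factor, at bases −82 to −73 and −72 to −63 from the start.
Dusp5: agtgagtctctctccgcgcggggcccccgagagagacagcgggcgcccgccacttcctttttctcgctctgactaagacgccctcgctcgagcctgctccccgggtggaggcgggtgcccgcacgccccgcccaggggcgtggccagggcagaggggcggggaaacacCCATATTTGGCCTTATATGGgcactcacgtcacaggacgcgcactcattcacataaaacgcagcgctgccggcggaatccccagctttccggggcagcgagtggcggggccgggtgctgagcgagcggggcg
In the Dusp1 window (chr10:17184603-17184902, plus strand) the capitals mark a full cAMP response element, TGACGTCA, at −124 to −117, the site of CREB and ATF factors, and an E box, CACGTG, at −107 to −102.
Dusp1: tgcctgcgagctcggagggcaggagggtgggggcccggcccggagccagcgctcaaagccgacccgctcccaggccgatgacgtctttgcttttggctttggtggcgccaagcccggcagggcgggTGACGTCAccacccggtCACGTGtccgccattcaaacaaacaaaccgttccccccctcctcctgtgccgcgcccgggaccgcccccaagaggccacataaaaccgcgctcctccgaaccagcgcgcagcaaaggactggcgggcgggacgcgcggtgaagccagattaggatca
A CArG box occurred on either strand in 1.64% of all 33469 windows. Of these windows 7 (0.0209%) held at least 2, and 1.83% held the full cAMP response element and 6.42% the E box. The CArG pattern, the cAMP response element and the E box match at the same bases on either strand, and the cAMP response element contains its core TGACG on each strand. The Dusp5 window also holds that core at −55 to −51 and an ETS site, CCGGAA, at 5 to 10, both on the minus strand, and the Dusp1 window holds the core once more at −172 to −168, none of them in capitals. These matches describe the sequence, and whether the sites were used in these cells was not measured.

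Dusp8 and Dusp10 act mainly on the stress kinases JNK and p38. Dusp8 had 150, 181 and 113 CPM in lactate libraries, against 11.3, 16.7 and 12.2 CPM in control libraries. The lowest lactate library was still several-fold above the highest control library. Its rise on the log2 scale was 3.46 ± 0.22 (SE; edgeR adjusted p = 4.3e-06), or 11.03-fold. Per length Dusp8 became the second most abundant of the 10, at 53.5 ± 8.80 FPKM in lactate and 8.93 ± 1.79 FPKM in control libraries (SD, n = 3).

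Dusp10, or MKP-5, had 43.6, 47.7 and 34.1 CPM in lactate libraries, against 2.95, 3.24 and 3.99 CPM in control libraries. The groups were far apart, and its rise of 3.62 ± 0.19 on the log2 scale (SE; edgeR adjusted p = 2.2e-06), or 12.3-fold, was the largest of the 10 and the 152nd largest rise of the 13747 genes tested. The 3 genes whose pattern over the 6 libraries was most like it were Btg2, an antiproliferative gene and p53 target, Sh3bp2, an adaptor protein, and Efna1, a ligand of Eph receptors. Their log2 CPM, centred on each gene's mean, differed from that of Dusp10 by a root mean square of 0.09, 0.11 and 0.12.

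Dusp16, or MKP-7, also acts on JNK and p38. It had 8.57, 6.91 and 13.9 CPM in lactate libraries, against 6.41, 8.78 and 7.81 CPM in control libraries. The groups overlapped, and lactate replicate 3 was the highest of all 6 libraries. It was not called (log2 fold change 0.36 ± 0.27, SE; edgeR adjusted p = 0.26), and without lactate replicate 3 the difference was 0.04 (edgeR adjusted p = 0.86). With library totals in place of TMM factors the sign turned (−0.47, edgeR adjusted p = 0.19). Its window holds a heat shock element, GAANNTTC, at −25 to −18, a match that 8.59% of all windows share. The same window holds the core of the cAMP response element, TGACG, at −70 to −66, which 21.2% of all windows hold.

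Dusp6, or MKP-3, is the cytoplasmic phosphatase of ERK and a common readout of ERK activity. It had 13.5, 13.5 and 6.33 CPM in lactate libraries, against 14.9, 11.1 and 12.9 CPM in control libraries. Lactate replicates 1 and 2 lay within the control range and lactate replicate 3 below it. It was not called (−0.23 ± 0.28, SE; edgeR adjusted p = 0.49). The value was 0.08 without lactate replicate 3, and with library totals Dusp6 was called lower at −1.12 (edgeR adjusted p = 0.0046).

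Spry1 and Spry2 encode Sprouty proteins, inhibitors of growth factor signalling to ERK. Spry1 had 5.49, 4.99 and 2.38 CPM in lactate libraries, against 21.8, 33.5 and 21.4 CPM in control libraries. Control replicate 2 was the highest, and every lactate library was below every control library. Spry1 fell by 2.59 ± 0.32 on the log2 scale (SE; edgeR adjusted p = 0.00014), which is 6.01-fold lower. Spry2 had 6.85, 6.68 and 4.61 CPM in lactate libraries, against 29.5, 25.5 and 28.5 CPM in control libraries. Here too the groups did not overlap, and Spry2 fell by 2.20 ± 0.18 on the log2 scale (SE; edgeR adjusted p = 1.4e-05), which is 4.61-fold lower.

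The window at the upstream start of Spry2 (chr15:89111877-89112176, minus strand, printed in the direction of the gene) is shown as the counterpart of the windows of risen genes. Unlike the window at the other start of Spry2, it held sites that were searched for. The capitals mark the core of the cAMP response element, TGACG, at −219 to −215 and an ETS site, CCGGAA, at −171 to −166, the kind of site bound by transcription factors that ERK phosphorylates.
Spry2: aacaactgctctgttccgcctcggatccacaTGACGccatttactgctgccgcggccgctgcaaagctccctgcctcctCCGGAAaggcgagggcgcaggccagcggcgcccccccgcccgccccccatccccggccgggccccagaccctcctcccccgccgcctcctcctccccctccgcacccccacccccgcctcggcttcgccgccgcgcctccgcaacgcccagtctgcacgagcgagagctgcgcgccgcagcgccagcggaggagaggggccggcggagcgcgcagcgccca
The core occurred in 21.2% and the ETS site in 14.95% of all windows. The AP-1 site TGANTCA (7.33% of all windows) and the CARE site TGATGNAA of ATF4 and CHOP (3.98%) were in 0 of the 10 windows. None of the sites searched was in 6 of the 10 windows, those of Dusp8, Dusp10, Dusp6, Spry1 and Spred1 and the other one of Spry2. Such a window without a match says only that these letters are not in it.

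The 3 genes whose pattern was most like that of Spry1 were Cyp2j10, a cytochrome P450, Zfhx2, a homeobox gene, and Stx17, a syntaxin of autophagosome fusion, at root mean square differences of 0.15, 0.16 and 0.17. Cyp2j10 and Zfhx2 were scarce, at a mean of 0.131 and 0.366 CPM in lactate libraries and 1.03 and 2.21 CPM in control libraries. Deposited counts and FPKM implied the same relative transcript length for each of the other 9 genes in all libraries with a range of at most 2.86%, but for Spry1 the range was 8.37%.

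Spred1 encodes a relative of Sprouty that binds the Ras inhibitor neurofibromin. It had 10.4, 12.04 and 9.51 CPM in lactate libraries, against 12.2, 9.94 and 10.1 CPM in control libraries, and the groups overlapped. The log2 fold change was −0.01 ± 0.16 (SE; edgeR adjusted p = 0.95). With library totals it was −0.88 and called lower (edgeR adjusted p = 0.0011), close to the median of −0.96 over all genes tested on that scale.

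**Figure D2:**
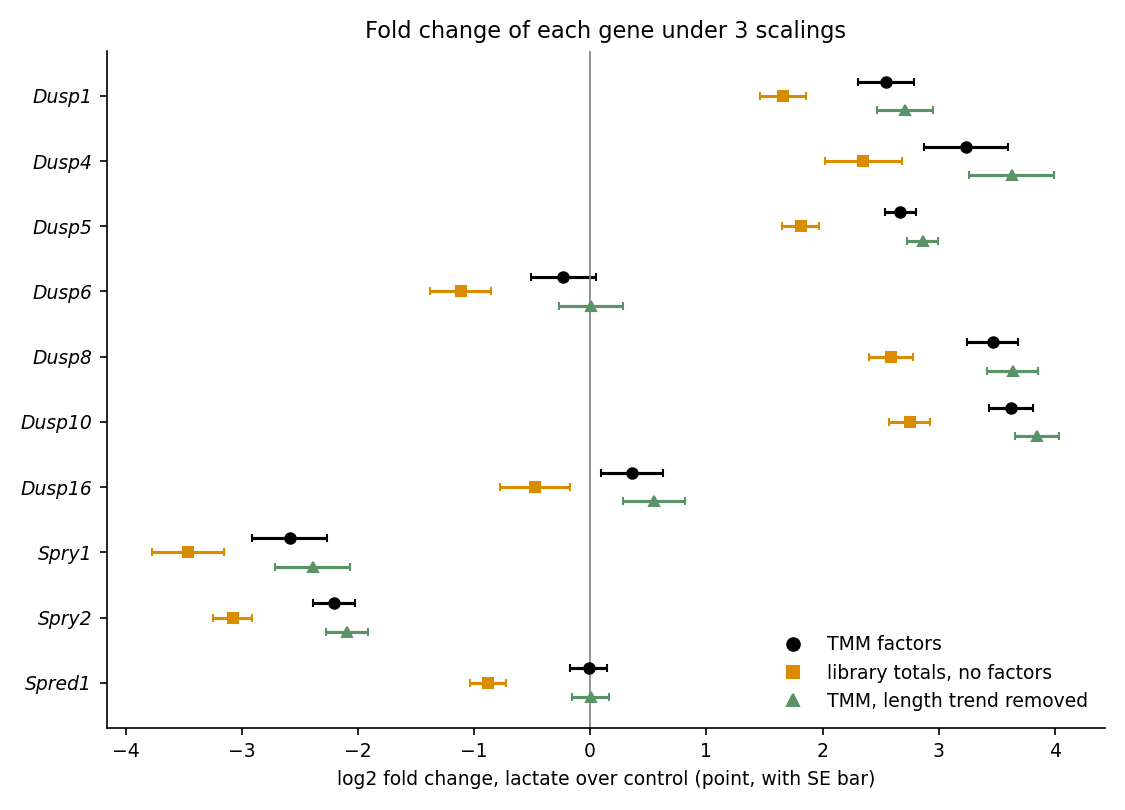
Log2 fold change of lactate over control for each gene, with the SE, from edgeR with TMM factors (black), with library totals (orange) and with TMM factors after removal of the trend of fold change on transcript length (green). Dusp1, Dusp4, Dusp5, Dusp8 and Dusp10 stay above 0 and Spry1 and Spry2 below 0 on all 3, while Dusp6, Dusp16 and Spred1 move across or away from 0.

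Across scalings the 7 called genes kept their sign and their call. With library totals the 5 risen genes were at 1.66 (Dusp1), 2.35 (Dusp4), 1.81 (Dusp5), 2.59 (Dusp8) and 2.75 (Dusp10), where 12.5% of all genes were called higher. Spry1 and Spry2 were at −3.46 and −3.08 with library totals, where 61.8% of all genes were called lower. The FPKM values, which carry no TMM factors, gave the same 5 genes higher and 4 lower with limma-trend, the added ones being Dusp6 and Spred1.

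Lactate replicate 3 lay outside the range of the other lactate libraries for most of the 10 genes. The share of all genes for which this holds was not counted. In CPM it was below both other lactate libraries for 8 genes, between them for Dusp5 and above both for Dusp16. In FPKM, without TMM factors, it was above both for Dusp5 (22.5, 19.2 and 24.9 in lactate replicates 1, 2 and 3). For Spred1 it was between them (4.41, 4.98 and 4.53 FPKM). Relative to the mean of lactate replicates 1 and 2 the CPM of lactate replicate 3 was 0.405 times as high for Dusp4, 0.454 for Spry1, 0.470 for Dusp6, 0.524 for Dusp1 and 1.80 for Dusp16. Over all genes its mean correlation of log2 CPM with the other 2 lactate libraries was 0.961, against 0.965 and 0.962 for lactate replicates 1 and 2. Without it the log2 fold changes were 2.82 for Dusp1, 3.59 for Dusp4, −2.26 for Spry1 and −2.01 for Spry2, all still called (the largest edgeR adjusted p was 9.8e-05).

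The order of the 10 genes by FPKM, a per-length scale on which different genes can be compared, differed between the groups. In lactate libraries it was Dusp1, Dusp8 (53.5 FPKM), Dusp5 (22.2), Dusp10 (10.999), Spred1 (4.64), Dusp16 (3.00), Dusp6 (2.83), Spry2 (2.36), Dusp4 (1.95) and Spry1 (1.21). The upper 4 were separated from each other and from Spred1 in every library, while each neighbouring pair among the lower 6 had overlapping ranges. In control libraries the order was Dusp1 (164 FPKM), Spry2 (20.1), Spry1 (14.1), Dusp8 (8.93), Spred1 (8.61), Dusp5 (6.36), Dusp6 (6.18), Dusp16 (4.21), Dusp10 (1.64) and Dusp4 (0.380). Neighbours with overlapping ranges there were Dusp8 with Spred1 and Dusp5 with Dusp6. Spry2 and Spry1 were thus next after Dusp1 in untreated cells and eighth and last after lactate.

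The share of each gene in the summed FPKM of the 10 does not depend on the scaling between libraries. Dusp1 made up 84.9, 84.8 and 79.0% of the sum in lactate libraries, against 71.3, 67.3 and 71.0% in control libraries (two-sided exact permutation test, p = 0.1, the smallest that 3 against 3 libraries allow, and 0.11 after Benjamini-Hochberg adjustment over 10 genes). The other 9 genes were set against each other without it. Among them Dusp8 took 51.3, 56.7 and 47.7% in lactate libraries, against 10.7, 15.3 and 11.97% in control libraries. Spry2 took 2.53, 2.26 and 2.09% in lactate libraries, against 30.2, 25.2 and 30.4% in control libraries. Spry1 took 1.48, 1.22 and 0.784% in lactate libraries, against 17.3, 24.3 and 18.2% in control libraries. The groups did not overlap for any of the 9 genes, each with an exact permutation p of 0.1. These shares sum to a fixed whole, so the 9 results are not independent of each other. Dusp6, Dusp16 and Spred1, which were not called, made up smaller shares after lactate, at means of 2.72, 3.01 and 4.53% in lactate and 8.77, 5.97 and 12.2% in control libraries. A gene that keeps its level loses share when others in the sum rise, so these smaller shares do not show a fall.

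**Figure D3:**
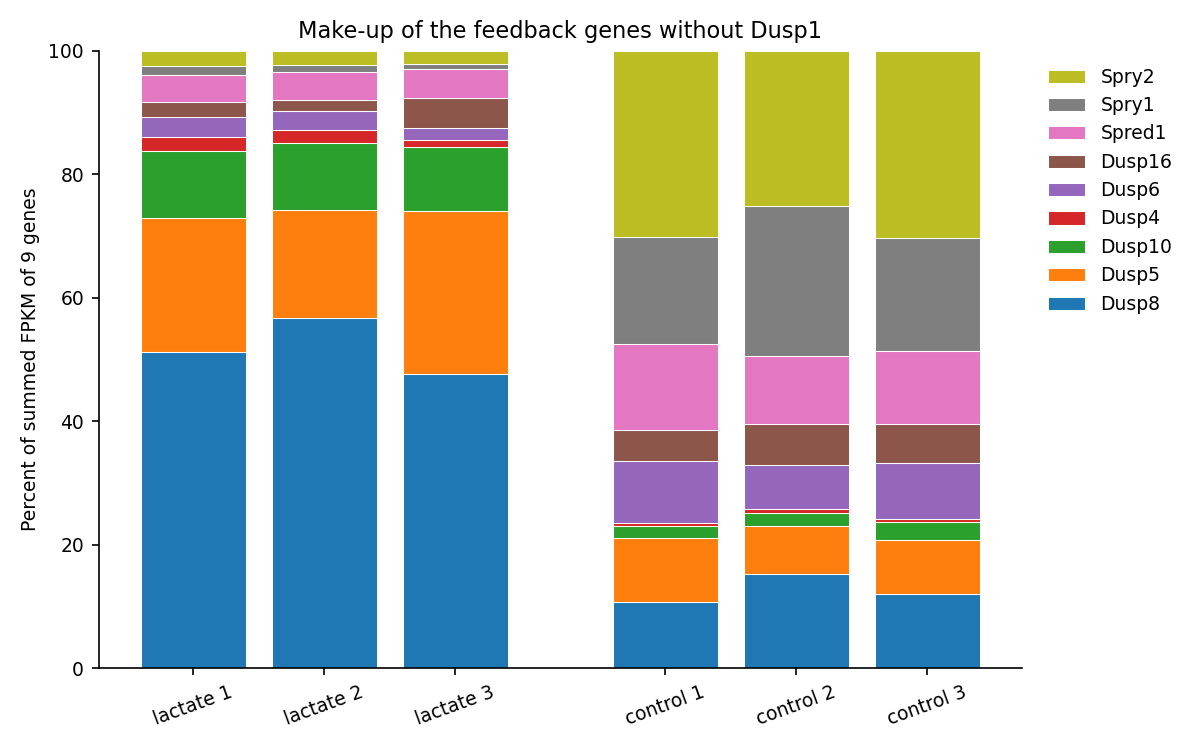
Percent of the summed FPKM of 9 genes (Dusp1 left out) in each lactate and control library, as stacked bars that reach 100%. Dusp8, Dusp5 and Dusp10 fill most of each lactate bar, and Spry2, Spry1 and Spred1 fill most of each control bar.

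Log2 ratios of FPKM within a library were compared for 5 pairs of genes. Dusp5 over Dusp6, a nuclear against a cytoplasmic ERK phosphatase, was 2.72, 2.54 and 3.80 in lactate libraries, against 0.05, 0.12 and −0.03 in control libraries. Untreated cells thus held near equal FPKM of both, and the mean log2 ratio was 2.98 higher in lactate libraries, a 7.87-fold change. Dusp1 over Dusp6 was 7.42, 7.54 and 7.64 in lactate libraries, against 4.63, 4.84 and 4.76 in control libraries. This ratio was nearly the same in all 3 lactate libraries although both genes were about 2-fold lower in lactate replicate 3.

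Dusp8 over Dusp16 was 4.41, 4.99 and 3.31 in lactate libraries, against 1.101, 1.21 and 0.92 in control libraries. These 3 ratios did not overlap between groups (two-sided exact permutation test, p = 0.1 each, the smallest possible, and 0.17 adjusted over 5 pairs). Each of the 3 set a called gene over one not called, and the pairs were chosen with earlier results known. Their separation follows largely from the calls above and is not separate support for them. Spry1 over Spry2 averaged −1.03 ± 0.34 in lactate and −0.53 ± 0.42 in control libraries (SD, n = 3; exact permutation p = 0.2). Dusp5 over Dusp4 averaged 3.59 ± 0.81 in lactate and 4.06 ± 0.24 in control libraries (SD, n = 3; exact permutation p = 0.4). Both of these overlapped between groups, and Dusp5 over Dusp4 turned to a difference of 0.59 with 1 FPKM added to each gene.

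**Figure D4:**
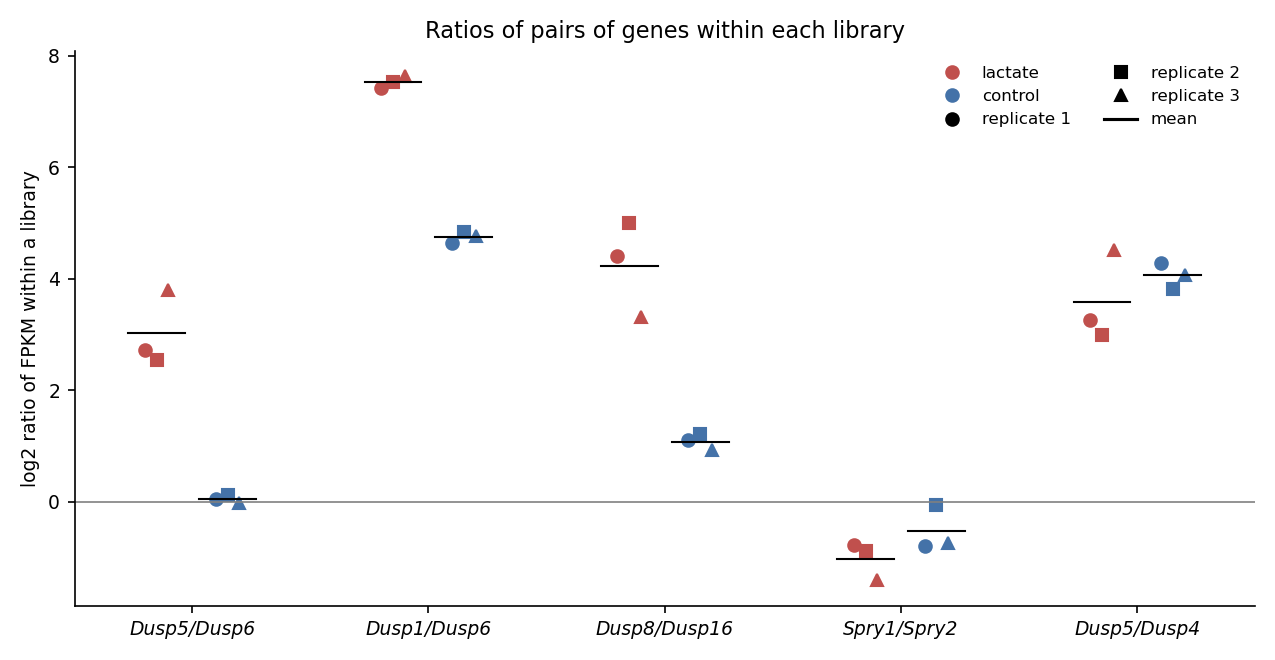
Log2 ratio of FPKM within each lactate (red) and control (blue) library for 5 pairs of genes, with 1 symbol per replicate number and a line at the mean. Dusp5/Dusp6, Dusp1/Dusp6 and Dusp8/Dusp16 lie wholly higher in lactate libraries, and Spry1/Spry2 and Dusp5/Dusp4 overlap.

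The other genes of the same families were set beside the 10. Of the 3 MKP genes outside the 10, Dusp7 and Dusp9, ERK phosphatases of the cytoplasm like Dusp6, rose by 1.86 ± 0.20 and 3.36 ± 0.24 (SE; edgeR adjusted p = 5.4e-05 and 7.3e-06). Dusp9 had 8.80, 10.1 and 8.91 CPM in lactate libraries, against 0.678, 1.08 and 0.933 CPM in control libraries. Dusp2, a nuclear phosphatase of immune cells, had 54, 15 and 19 counts in lactate and 17, 14 and 28 counts in control libraries. It was called at 1.61 ± 0.61 (SE; edgeR adjusted p = 0.044), but not without lactate replicate 1 (0.74, edgeR adjusted p = 0.27), and its call was lost in 12 of the 18 alternative settings, library totals and the replicate block (1.42, edgeR adjusted p = 0.092) among them. Of the 10 genes of the whole MKP family, 8 were called higher with Dusp2 counted, 0 lower and 2 not called, where 31.4% of all genes were called higher, with a median log2 fold change of 2.61, against −0.10 over all genes tested. With library totals 7 were higher, where 12.5% of all genes were, 1 (Dusp6) was lower and the median was 1.74.

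In the Sprouty and Spred family 0 of 7 genes were called higher, 5 lower and 2 not called, with a median log2 fold change of −1.96. Over all genes tested 31.4% were called higher and 34.6% lower, with a median of −0.10. Spry3 had 6, 3 and 14 counts in lactate libraries, against 64, 129 and 73 counts in control libraries, and fell by 2.54 ± 0.49 (SE; edgeR adjusted p = 0.0018). Its deposited counts and FPKM implied transcript lengths that ranged over 85.4% among libraries. Spred2 and Spred3 fell by 1.96 ± 0.18 and 1.17 ± 0.23 (SE; edgeR adjusted p = 2.8e-05 and 0.0020). Spry4, a Sprouty gene that ERK also induces, was not called, at 10.5, 8.65 and 8.25 CPM in lactate libraries and 10.6, 9.03 and 8.59 CPM in control libraries (−0.04 ± 0.17, SE). With library totals all 7 were called lower, with a median of −2.81, where 61.8% of all genes were called lower (median −0.96).

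**Figure D5:**
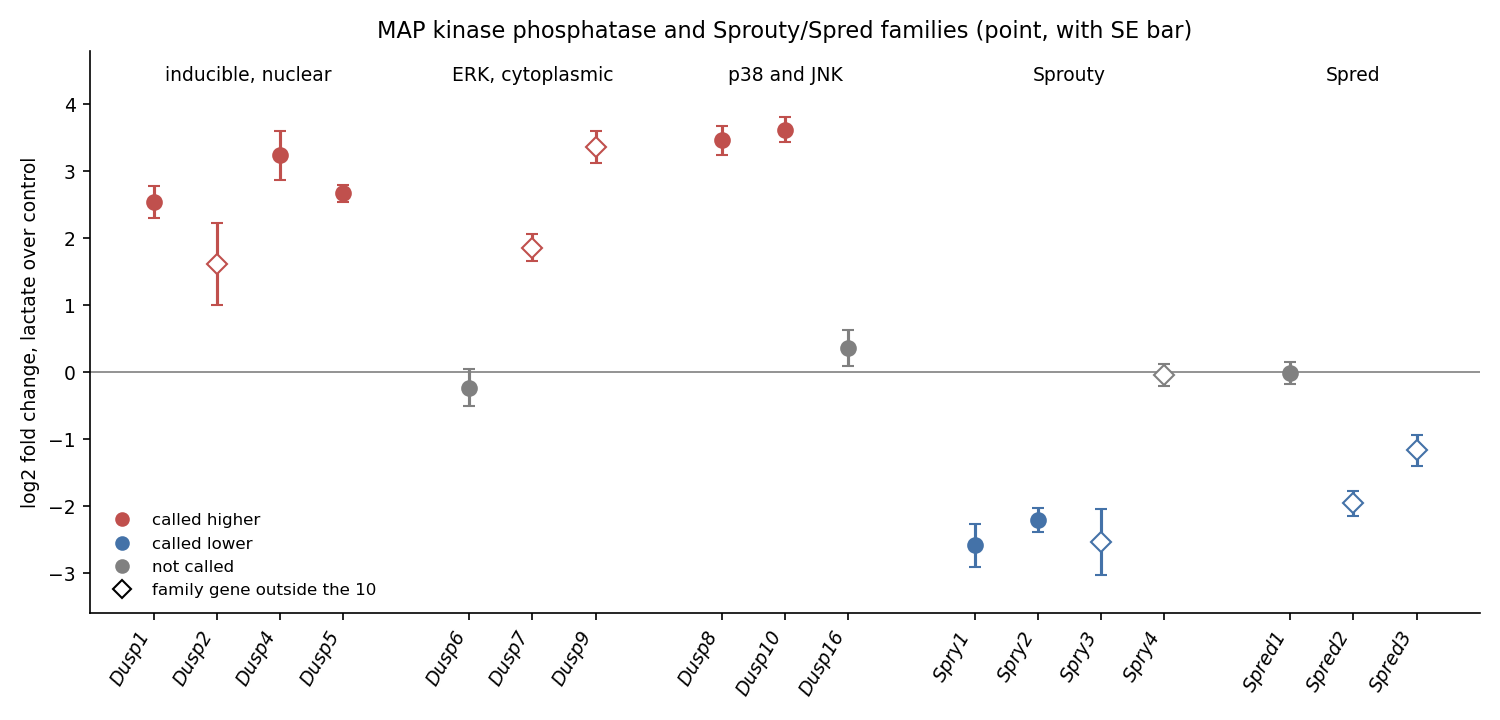
Log2 fold change of lactate over control with the SE (edgeR, TMM factors) for the 10 genes (filled circles) and the other genes of their families (open diamonds), grouped by substrate or family and coloured by call. All phosphatases but Dusp6 lie above 0, with Dusp16 not called, and Sprouty and Spred genes lie at or below it.

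The kinases and growth factor genes around these regulators are given as counts without a test of the list, and most of these counts depended on the scaling. Of all genes tested 31.4% were called higher and 34.6% lower (median −0.10). With library totals 12.5% were higher and 61.8% lower (median −0.96). Of 21 genes of the Ras and ERK cascade 5 were higher, 6 lower and 10 not called (median −0.06), while library totals gave 0 higher and 16 lower (median −0.89). The adaptor Shc1 was lower at −0.95 ± 0.09 (SE; edgeR adjusted p = 2.7e-05). Of 18 tested genes of the p38 and JNK cascades 6 were higher, 6 lower and 6 not called (median 0.18), against 1 higher and 10 lower with library totals (median −0.68). Mapkapk3, a kinase activated by p38, was higher at 2.08 ± 0.10 and its relative Mapkapk2 at 0.81 ± 0.10 (SE). Library totals put Mapkapk2 at −0.05, without a call. Map3k7 (TAK1), a kinase upstream of p38 and JNK, was lower at −1.23 ± 0.16.

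Of 14 tested transcripts that ERK is known to induce, 10 were higher, 1 lower and 3 not called (median 1.03). Of all genes 31.4% were called higher and 34.6% lower. Library totals gave 5 higher and 5 lower at a median of 0.16, where 12.5% of all genes were higher and 61.8% lower. Ier3, Junb and Plaur rose by 2.15 ± 0.09, 2.04 ± 0.14 and 2.64 ± 0.19, and the 1 gene that fell was Egr1 (−1.37 ± 0.17, SE), named after its value was seen. Of the other negative regulators of Ras and ERK 3 of 18 were higher, 7 lower and 8 not called (median −0.28), and 3 of the 7 were Spry3, Spred2 and Spred3. The split was 2 higher and 14 lower with library totals (median −1.14), and 5 higher and 6 lower with the length trend removed (median 0.15). Errfi1, a feedback inhibitor of the EGF receptor, rose by 2.93 ± 0.12 and Pebp1, an inhibitor of Raf, by 1.80 ± 0.10, while Rasa3, which switches Ras off, fell by 2.35 ± 0.13 (SE).

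Growth factor receptors were called lower in 5 of 11 and higher in 0, with a median of −0.47. Of all genes 34.6% were called lower and 31.4% higher (median −0.10). With library totals all 11 receptors were lower (median −1.32), where 61.8% of all genes were called lower (median −0.96). With the length trend removed 2 receptors were higher and 4 lower (median 0.05). The receptors with the smallest p were Pdgfra (−1.42 ± 0.11), Pdgfrb (−1.27 ± 0.12) and Erbb2 (−2.89 ± 0.33, SE). Of 12 ligands 4 were higher and 3 lower, with a median of 0.01, against 2 higher and 5 lower with library totals (median −0.85). Pdgfa, a PDGF chain, rose by 2.19 ± 0.19, and the EGF receptor ligands Areg and Tgfa by 2.40 ± 0.26 and 0.85 ± 0.14 (SE), Tgfa not with library totals (−0.0030). The ligands that fell, named after their values were seen, were Ereg (−0.60 ± 0.12) and Fgf1 (−0.95 ± 0.26, SE), and Btc, with 3 counts over the lactate and 61 over the control libraries. The atypical dual-specificity phosphatases, which lack the MAP kinase binding domain of the MKP family, were called lower in 5 of 11 and higher in 0, with a median of −0.54, and in 8 and 0 with library totals (median −1.38). Styx, Dusp23 and Dusp18 fell by 1.74 ± 0.31, 1.43 ± 0.35 and 0.90 ± 0.14 (SE).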

How the data were processed

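The deposited tables hold raw read counts per gene and FPKM for each library, with the authors' own log2 fold changes and p-values, per the file headers. FPKM are counts scaled by the authors to transcript length and library total. No aligner, counting tool or strand setting was found in these sources, so reads of a gene and of an antisense or overlapping one cannot be told apart. The submitters' processing notes name the mouse builds GRCm38 and mm10, while the table uses rat gene names, so the genome that reads were aligned to was not settled. Promoters come from the rat build GRCr8 of RefSeq and were matched by symbol only.

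Unaltered counts of the 3 lactate and 3 control libraries entered edgeR 4.0.16 (R 4.3.3; filterByExpr, TMM factors, a model of group alone, the quasi-likelihood test), and p-values were adjusted by Benjamini-Hochberg over all genes tested. Shares and ratios within a library were tested with exact permutation tests (scipy 1.17.1). Other settings tried were library totals, RLE or upper-quartile factors, other filters, DESeq2 1.42.0, limma 3.58.1 (voom on counts, and trend on log2 FPKM with 1 or 0.1 added first), a replicate block, glmTreat with a minimum fold of 1.2, removal of a loess trend on relative transcript length (counts over FPKM), and each library left out. The edgeR fit was tested on simulated data with 200 of 13747 genes changed. It recovered 53% of the 2-fold and 93% of the 4-fold changes, and called 15 unchanged genes. The simulation held few changed genes and no shift of the bulk between groups, so it did not test the scaling of these data.

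The 10 genes, the lists and the tests were chosen with earlier results of these data known. Named were all 10 genes, the other MKP genes, from each list the called genes of smallest p (3 at most), and the 3 genes nearest in pattern to the genes of largest rise and fall. Some genes that this rule names are not reported here. The remaining Sprouty and Spred genes were named as a family after their values were seen. Counts of the 10 genes ran between 52 and 37261 per library. Over the whole series 32 genes had 0 counts in a library and over 1000 in another, none of them among the 10.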

Additional observations from a re-analysis of the deposited data

How the results depend on the processing

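Dusp1, Dusp4, Dusp5, Dusp8, Dusp10, Spry1 and Spry2 kept their sign and call under all 18 alternatives, and each library left out gave 7 calls, 5 higher and 2 lower. Library totals, log2(FPKM + 1) and log2(FPKM + 0.1) called 1722, 1781 and 1770 genes higher over the whole table and 8492, 8759 and 8737 lower, and 4 of the 10 genes lower. In these 3 settings, in that order, Dusp6 was called at −1.12, −0.93 and −1.14 and Spred1 at −0.88, −0.76 and −0.87, while Dusp16 turned to −0.47, −0.43 and −0.55, not called. By construction these settings have no TMM factors. The cause of the remaining changes was not tested. With the length trend removed Dusp6 was at 0.0068 and Spred1 at 0.0043, and Spred1 was at 0.032 with RLE factors and 0.031 with DESeq2, none of them called. With each library left out Dusp6 ran between −0.39 and 0.082, Dusp16 between 0.04 and 0.56 and Spred1 between −0.11 and 0.090. The difference in the Dusp5 over Dusp4 ratio turned to 0.59 with 1 FPKM added. The difference in the share of Dusp5 in the summed FPKM, 1.12 percentage points, was 0.268 without lactate replicate 3, and the groups overlapped for this share. Deviations from the group mean correlated weakly between same-numbered libraries (0.01, 0.04 and 0.08), against −0.11 to 0.07 between other pairs. With 3 libraries per group this cannot show whether the numbers pair cultures or animals. A replicate block called 8814 genes, against 9079, with the same 7 calls among the 10 genes. The lowest count of a gene among the 10 was 52 in a library. Dusp4 had the lowest count of the 10 over the control libraries (169), and Spry1 over the lactate libraries (295).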
